A study of Homo sapiens with 12 samples.

Results

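The genes described here are 10 genes of the NF-kB pathway (MYD88, TNFAIP3, NFKBIA, NFKB1, NFKB2, RELA, RELB, IRAK1, TRAF6 and BIRC3), taken by symbol from the 63677 gene identifiers counted in LNCaP cells, an established human prostate cancer line that grows with androgen. MYD88 and TNFAIP3 were chosen by their values in the Bag-1L knockout line, so their values in all groups are described here without a test. The other 8 members were chosen by name as parts of the same pathway.

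The study compared 2 LNCaP lines. In Bag-1L KO cells a TALEN, an engineered nuclease, had removed the start codon of Bag-1L, the longest protein made from the BAG1 gene, and the control line had received the TALEN vector control. The KO cells came from clones isolated by dilution, so loss of Bag-1L and features of the clone cannot be told apart. Each line was grown in full medium with 10% fetal bovine serum (FM), or was kept for 72 h on charcoal-stripped serum, which starves the cells of hormone, before 16 h with ethanol vehicle (EtOH) or with 10 nM of the androgen dihydrotestosterone (DHT). Each of the 6 groups had 2 replicates, and p-values measure only the spread between such samples.

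NF-kB is a family of dimeric transcription factors built from the subunits encoded by RELA, RELB, NFKB1, NFKB2 and REL. In resting cells inhibitor proteins, IkB alpha from NFKBIA among them, hold the dimers in the cytoplasm. Toll-like and interleukin-1 receptors signal through the adaptor MyD88, the kinase IRAK1 and the ubiquitin ligase TRAF6 to the IKK kinases, which mark the inhibitors for destruction. NF-kB then raises transcription of NFKBIA, TNFAIP3, NFKB2, RELB and BIRC3, and A20, the ubiquitin-editing protein made from TNFAIP3, damps the signal. In prostate cancer cells the pathway is studied for its ties to inflammation and to androgen receptor activity.

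The stretch before the start site is shown for 5 members to set the DNA letters that NF-kB subunits can bind beside the measured changes. Each is the 250 bases upstream of a start site in RefSeq (GRCh38.p14), read on the gene's strand, with every match to the kB consensus on either strand in capitals. The MYD88 sequence is chr3:38138411-38138660 (plus strand), TNFAIP3 is chr6:137867009-137867258 (plus strand), NFKBIA is chr14:35404750-35404999 (minus strand), the second of 3 NFKB2 start sites is chr10:102394328-102394577 (plus strand), and BIRC3 is chr11:102317234-102317483 (plus strand).
MYD88: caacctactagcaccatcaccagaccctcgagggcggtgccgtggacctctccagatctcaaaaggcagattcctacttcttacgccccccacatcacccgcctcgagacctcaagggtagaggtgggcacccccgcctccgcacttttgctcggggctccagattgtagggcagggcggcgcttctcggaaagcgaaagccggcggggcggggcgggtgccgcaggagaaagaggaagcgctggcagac
TNFAIP3: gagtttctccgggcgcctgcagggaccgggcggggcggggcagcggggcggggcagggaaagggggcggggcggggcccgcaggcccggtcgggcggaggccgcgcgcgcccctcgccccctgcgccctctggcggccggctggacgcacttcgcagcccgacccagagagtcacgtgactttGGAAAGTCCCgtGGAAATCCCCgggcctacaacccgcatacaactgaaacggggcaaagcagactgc
NFKBIA: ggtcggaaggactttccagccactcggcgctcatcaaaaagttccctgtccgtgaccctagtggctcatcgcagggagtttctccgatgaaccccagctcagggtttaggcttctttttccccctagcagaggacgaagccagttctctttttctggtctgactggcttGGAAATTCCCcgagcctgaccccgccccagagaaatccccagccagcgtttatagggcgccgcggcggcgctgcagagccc
NFKB2: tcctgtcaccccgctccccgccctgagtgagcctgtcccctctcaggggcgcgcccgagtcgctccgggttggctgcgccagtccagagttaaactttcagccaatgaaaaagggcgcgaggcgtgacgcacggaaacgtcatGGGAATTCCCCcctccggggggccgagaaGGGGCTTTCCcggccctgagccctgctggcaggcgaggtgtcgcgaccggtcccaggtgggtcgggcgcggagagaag
BIRC3: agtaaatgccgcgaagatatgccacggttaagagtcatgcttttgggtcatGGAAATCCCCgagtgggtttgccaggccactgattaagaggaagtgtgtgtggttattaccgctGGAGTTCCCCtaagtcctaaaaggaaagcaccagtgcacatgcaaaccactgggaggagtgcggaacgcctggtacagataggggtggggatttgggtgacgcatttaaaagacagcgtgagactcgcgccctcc
Promoter windows of 300 bases, the 50 bases after the start included, were searched for 9 of the 10 members (13 windows). RELB had no window. The kB consensus, a motif of 10 letters with degenerate positions, was matched on both strands, and a palindromic match was counted once. It stood in 11.3% of 35116 promoter windows of all genes. TNFAIP3 had 2 matches, beginning 67 and 55 bases before the start. NFKBIA had 1 match at 81 bases and NFKB1 had 1 at 49 bases before a start. NFKB2 had matches before 2 of its 3 starts, with 3 overlapping or neighbouring matches in the window shown. BIRC3 had 2 matches, at 199 and 135 bases before its start, IRAK1 had 1, and MYD88, RELA and TRAF6 had 0. The looser pattern GGGNNNNNCC, of which the consensus is a subset, stood in 58.7% of all windows. The core of an androgen receptor motif, AGAACA, stood in 14.8% of all windows on either strand and in 0 of the 13 member windows. A match is a run of letters, not a measured binding site.

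Between 20826843 and 30354666 reads per sample were counted in genes. The luminal prostate markers were all expressed, 8 of 8 at a mean of 100 or more normalized counts (counts scaled to a common depth by the size factors of DESeq2). All 3 basal and all 5 leukocyte markers had a mean under 10, and the leukocyte markers summed to between 1 and 14 in a sample. Of 4 fibroblast or endothelial markers 1 reached a mean of 100, COL1A1, and the list summed to 394 to 1027. BAG1 had 1701 and 2703 normalized counts in control and 1191 and 1103 in KO with EtOH, 2199 and 2631 in control and 1075 and 1114 in KO with DHT, and 2117 and 1968 in control and 1452 and 1576 in KO in FM. These counts cover all BAG1 mRNA, including that read for the shorter proteins, so they do not check the Bag-1L deletion itself. Replicates differed most in control EtOH, where the absolute log2 difference between them had a median of 0.238 over 11374 genes, against 0.0765 to 0.172 in the other groups. Labels gave no batches. In bulk RNA, fewer cells that express a gene and less of its RNA per cell cannot be told apart.

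MYD88, the adaptor of Toll-like and interleukin-1 receptors (ENSG00000172936, chr3:38180043-38184515 on GRCh37, plus strand), was low in every control sample and high in every KO sample. With EtOH its normalized count was 91.4 and 84.6 in control and 564 and 531 in KO. With DHT it was 93.9 and 88.8 in control and 669 and 704 in KO. In FM it was 128 and 109 in control and 811 and 803 in KO. The highest control sample lay far below the lowest KO sample, and within each line FM gave the highest level. The KO level was 6.22-fold that of control in EtOH (log2 fold change 2.64, SE 0.17), 7.51-fold in DHT (2.91, SE 0.17) and 6.83-fold in FM (2.77, SE 0.16).

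Between culture conditions the log2 fold changes of MYD88 were smaller than between the lines. DHT against EtOH gave 0.05 (SE 0.20) in control and 0.33 (SE 0.14) in KO, and FM against EtOH gave 0.43 (SE 0.19) in control and 0.56 (SE 0.14) in KO. For the members that were tested, a call needed both a fold change of 1.5 or more and an adjusted p of 0.05 or less.

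TNFAIP3, which encodes A20 (ENSG00000118503, chr6:138188351-138204451, plus strand), had a pattern that depended on the medium. With EtOH it had 55.2 and 54.7 normalized counts in control and 174 and 167 in KO, and with DHT 310 and 297 in control and 324 and 342 in KO. In FM it had 148 and 146 in control and 120 and 114 in KO. The control EtOH samples stood lowest of all 12, the DHT samples of both lines stood highest, and FM was the condition in which control lay above KO. On the log2 scale KO minus control was 1.63 (SE 0.22) in EtOH, 0.13 (SE 0.17) in DHT and -0.33 (SE 0.19) in FM. DHT against EtOH gave 2.46 (SE 0.21) in control and 0.97 (SE 0.18) in KO, a difference of -1.50 (SE 0.27) between the lines. FM against EtOH gave 1.42 (SE 0.22) in control and -0.54 (SE 0.19) in KO, a difference of -1.96 (SE 0.29). TNFAIP3 shares 95 of its exon bases (1.5%) with the antisense RNA WAKMAR2, whose mean normalized count was 14.7.

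**Figure D1:**
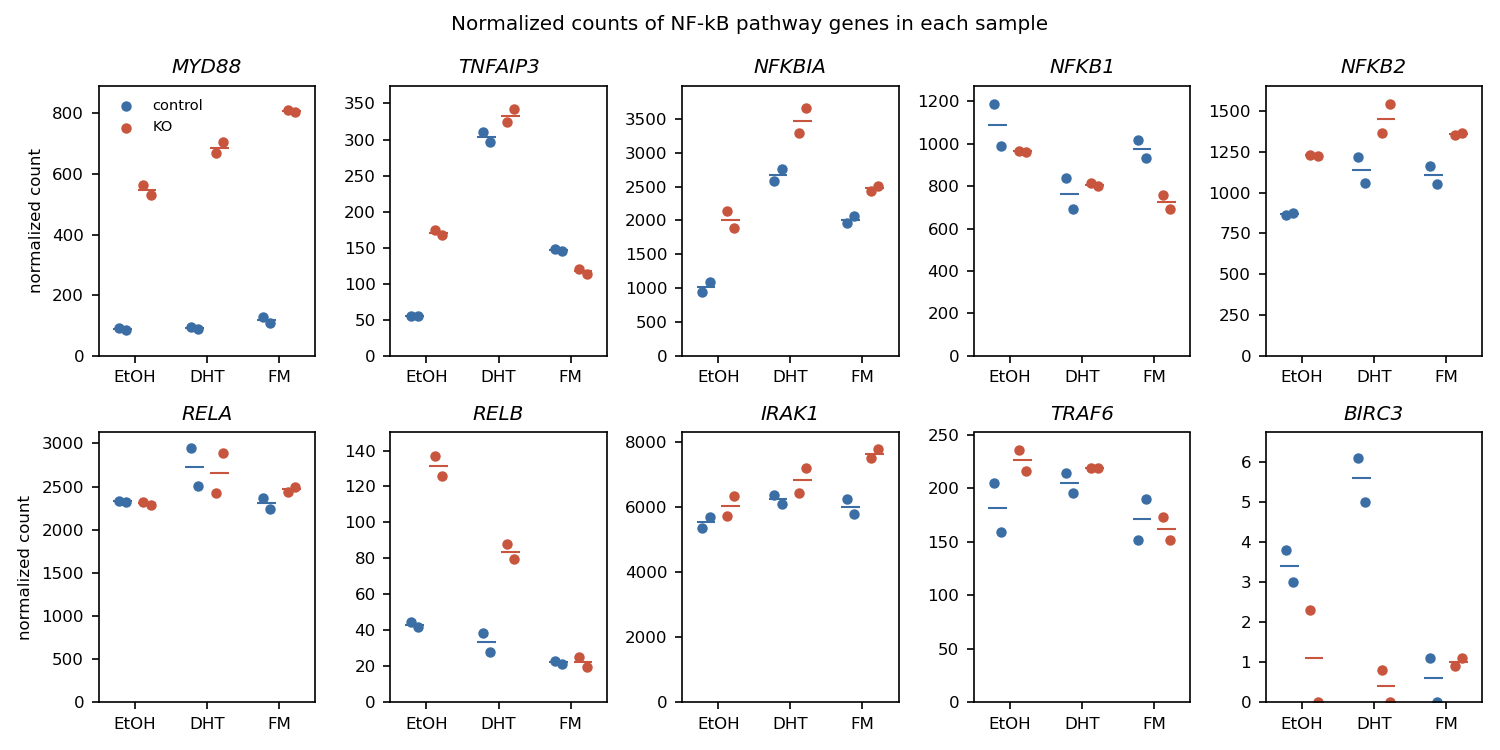
Normalized count (y axis, from 0, scaled for each gene) of the 10 genes in every sample, by culture condition (x axis), with control in blue and KO in red; points are the 2 replicates and lines their mean. MYD88, chosen by its values in KO, separates by line in every condition, at most 128 in control and at least 531 in KO. RELB separates in EtOH and DHT only.

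NFKBIA, which encodes IkB alpha (ENSG00000100906, chr14:35870285-35873955, minus strand), was higher in KO than in control in EtOH. With EtOH it had 944 and 1096 normalized counts in control against 2137 and 1884 in KO, with DHT 2585 and 2755 against 3287 and 3659, and in FM 1958 and 2059 against 2439 and 2512. The lines did not overlap in any condition, and the gap was widest in EtOH, where control was lowest. The log2 fold change was 0.98 in EtOH (SE 0.12, adjusted p = 1.08e-13, DESeq2). It was 0.38 in DHT (SE 0.12, adjusted p = 0.0110), under the fold minimum, and 0.30 in FM (SE 0.12, adjusted p = 0.0551). DHT raised NFKBIA in both lines, by 1.39 in control (adjusted p = 4.96e-29) and 0.79 in KO (adjusted p = 7.70e-10). The difference of these responses was -0.60 (SE 0.17, adjusted p = 0.0676) and did not pass. FM against EtOH raised it by 0.98 in control (adjusted p = 1.49e-14), while the change of 0.30 in KO (adjusted p = 0.0364) was under the fold minimum. The difference between the lines in the FM response was -0.68 (SE 0.17, adjusted p = 0.00835, DESeq2). This call was lost with edgeR and when any of 6 samples was left out, over which the adjusted p ranged up to 0.320.

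RELB, the partner of p52 in the noncanonical pathway (ENSG00000104856, chr19:45504719-45541450, plus strand), was scarce. It had 44.7 and 41.8 normalized counts in control and 137 and 126 in KO with EtOH, 38.4 and 28.2 in control and 87.9 and 79.7 in KO with DHT, and 23.2 and 21.4 in control and 25.2 and 19.7 in KO in FM. Both starved KO groups lay above every control sample, and in FM the lines overlapped. KO cells had 3.04-fold more RELB in EtOH (log2 fold change 1.60, SE 0.30, adjusted p = 7.56e-06, DESeq2) and 2.52-fold more in DHT (1.33, SE 0.32, adjusted p = 6.21e-04). Without replicate 2 of control DHT the latter was 1.13 with an adjusted p of 0.0714. In FM the log2 difference was 0.02 (95% interval -0.75 to 0.79). FM against EtOH lowered RELB in KO by a log2 fold change of -2.54 (SE 0.34, adjusted p = 1.79e-12). In control the change was -0.96 (SE 0.36, adjusted p = 0.0272), a call that was lost when any sample of either group was left out, with adjusted p up to 0.171 over the alternatives. The difference between the lines in the FM response was -1.58 (SE 0.50, adjusted p = 0.0714) and did not pass.

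NFKB2, which encodes p100 and its product p52 (ENSG00000077150, chr10:104153867-104162281, plus strand), had 863 and 878 normalized counts in control and 1230 and 1227 in KO with EtOH. With DHT it had 1218 and 1061 in control and 1363 and 1540 in KO, and in FM 1160 and 1051 in control and 1353 and 1367 in KO. KO lay above control in every condition without overlap, by less than the fold minimum. The log2 fold change was 0.50 in EtOH (SE 0.12, adjusted p = 0.00108, DESeq2), 0.35 in DHT (SE 0.12, adjusted p = 0.0259) and 0.30 in FM (SE 0.12, adjusted p = 0.0616).

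NFKB1, which encodes p105 and its product p50 (ENSG00000109320, chr4:103422487-103538459, plus strand), had 1186 and 988 normalized counts in control and 966 and 960 in KO with EtOH, 840 and 690 in control and 814 and 799 in KO with DHT, and 1015 and 933 in control and 759 and 692 in KO in FM. The lines overlapped in DHT, and in EtOH and in FM both KO samples lay below both control samples. The difference in EtOH was small, at -0.17 on the log2 scale (95% interval -0.45 to 0.10). No comparison passed for NFKB1. The largest changes were -0.51 with DHT in control (SE 0.14, adjusted p = 0.00242, DESeq2) and -0.42 for KO against control in FM (SE 0.14, adjusted p = 0.0197), both under the fold minimum.

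RELA, which encodes p65, the main activating subunit (ENSG00000173039, chr11:65421070-65430561, minus strand), passed in no comparison. Over the 12 samples it ranged from 2241 in control FM to 2942 in control DHT. KO minus control was -0.01 in EtOH (95% interval -0.25 to 0.22), -0.04 in DHT (-0.27 to 0.20) and 0.10 in FM (-0.14 to 0.33) on the log2 scale, so differences of 1.5-fold lay outside each interval.

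IRAK1, the kinase recruited by MyD88 (ENSG00000184216, chrX:153275957-153285353, minus strand), had 5345 and 5694 normalized counts in control and 5724 and 6327 in KO with EtOH. With DHT it had 6363 and 6088 in control and 6430 and 7201 in KO, and in FM 6230 and 5767 in control and 7487 and 7764 in KO. KO FM stood above all other groups. The log2 fold change of KO against control was 0.13 in EtOH, 0.13 in DHT and 0.35 in FM (SE 0.10, adjusted p = 0.00925, DESeq2), under the fold minimum in each. TRAF6, the ubiquitin ligase that follows IRAK1 (ENSG00000175104, chr11:36505319-36531822, minus strand), lay between 152 and 236 normalized counts in all 12 samples. KO minus control was 0.31 in EtOH (95% interval -0.07 to 0.70), 0.10 in DHT (-0.28 to 0.48) and -0.08 in FM (-0.47 to 0.32) on the log2 scale.

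BIRC3, which encodes the ubiquitin ligase cIAP2 (ENSG00000023445, chr11:102188215-102210134, plus strand), was near the limit of detection. With EtOH it had 4 and 3 reads in control and 2 and 0 in KO, with DHT 6 and 5 in control and 1 and 0 in KO, and in FM 1 and 0 in control and 1 and 1 in KO. Such counts were too low for DESeq2 to give an adjusted p, and no fold change is given.

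**Figure D2:**
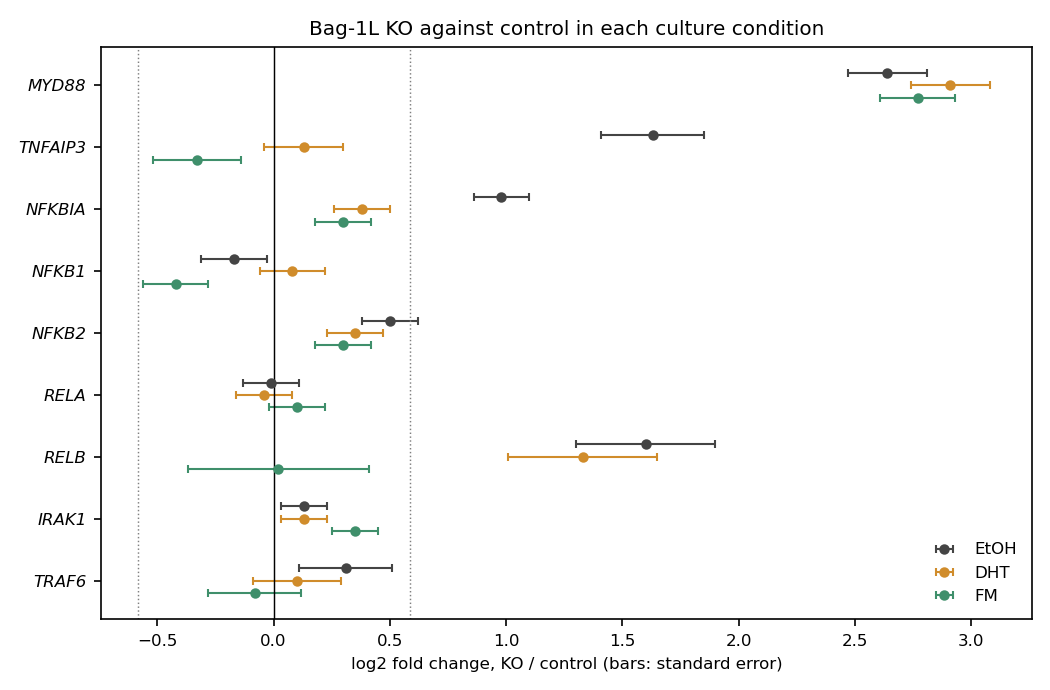
Log2 fold change of KO against control (x axis) for 9 genes (rows) in EtOH, DHT and FM; points are DESeq2 estimates from 2 replicates per group, bars the standard error, and dotted lines the 1.5-fold minimum. RELB is at 1.60 and 1.33 in the starved conditions and at 0.02 in FM, and RELA lies within 0.10 of 0 throughout.

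Of the 8 members not chosen by their values, 7 could be tested. In EtOH 2 of them (NFKBIA and RELB) were higher in KO and 0 were lower, where 5.11% of all genes tested passed, 2.80% higher and 2.31% lower. In DHT 1 member (RELB) was higher, where 7.98% of genes passed, 4.66% higher and 3.32% lower. In FM 0 members passed with DESeq2 and 0 with edgeR, with 4 at an unadjusted p under 0.05, where 8.01% of genes passed, 5.41% higher and 2.60% lower.

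With DHT, 1 member (NFKBIA) rose in control and 1 (NFKBIA) rose in KO. The share of all genes that passed was 11.4% in control, 6.04% higher and 5.37% lower, and 7.68% in KO, 4.43% higher and 3.24% lower. With edgeR 2 members passed in KO, where RELB, at -0.65 with DESeq2 (adjusted p = 0.125), joined NFKBIA. FM against EtOH raised 1 member (NFKBIA) and lowered 1 (RELB) in control, where 21.3% of genes passed, 9.81% higher and 11.5% lower. It lowered 1 (RELB) in KO, where 19.3% of genes passed, 9.61% higher and 9.68% lower. The difference between the lines in the DHT response passed for 0 of 7 members with DESeq2 and 0 with edgeR, with 1 at an unadjusted p under 0.05, and for 0.408% of all genes, 0.223% higher and 0.185% lower. The difference in the FM response passed for 1 member (NFKBIA), which was lower, and for 1.39% of all genes, 0.748% higher and 0.640% lower. KO against control in EtOH and each response share their EtOH samples.

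**Figure D3:**
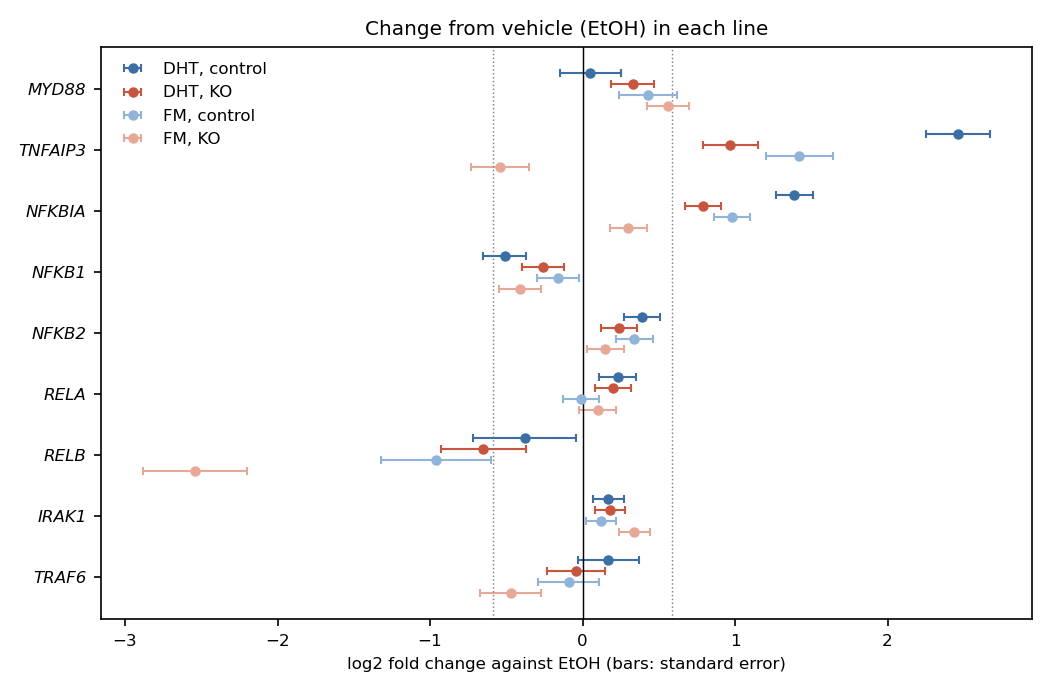
Log2 fold change against EtOH (x axis) of 9 genes (rows) for DHT and FM in control (blue shades) and KO (red shades); points are DESeq2 estimates from 2 replicates per group, bars the standard error, and dotted lines the 1.5-fold minimum. NFKBIA rises by 1.39 in control and 0.79 in KO with DHT, and RELB falls by 2.54 in KO in FM.

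Per base of transcript the members spanned a wide range. In TPM (counts divided by the summed exon length of each gene and scaled to a common sum) IRAK1 was highest, from 173 to 273 over the 12 samples, above every other member in each, and BIRC3 was lowest, at most 0.109. The ranges of NFKBIA (41.3 to 149) and RELA (55.0 to 73.3) overlapped, and both lay above NFKB2 (20.4 to 38.2). NFKB1 ranged from 5.39 to 11.2. The place of MYD88 depended on the line. Its group means were 2.80 to 4.14 TPM in control, below those of NFKB1 there (6.29 to 9.69), and 19.3 to 29.2 in KO, above those of NFKB1 (7.01 to 9.09) and below those of NFKB2 (32.6 to 37.3). TNFAIP3 (1.10 to 7.46), TRAF6 (2.54 to 4.27) and RELB (0.988 to 6.71) overlapped one another, and the control samples of MYD88 (2.60 to 4.50) lay within the ranges of all 3 of these genes except for 1 sample above that of TRAF6.

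The wider pathway was read from a list of receptors, adaptors, IKK kinases, Rel subunits, inhibitors and target genes, 99 genes without MYD88 and TNFAIP3. Of these, 81 passed the filter on low counts, and 24 of 34 target genes and 5 of 14 receptors had a mean normalized count under 10. Of 6 IKK kinases 4 were tested, since IKBKG and IKBKE had 0 reads in every sample. Whether that reflects their expression or the identifiers matched by symbol was not tested. Symbols came from an annotation whose release may differ from that of the counts. The same limit holds for target genes with 0 reads in every sample, which are among the 24. In KO against control in EtOH, 4 of 66 tested genes rose (RELB, NFKBIA, NFKBIZ and IRF1) and 0 fell, which is 6.06% beside the 5.11% of all genes. At an unadjusted p under 0.05 there were 11, and edgeR called 4. The list's median log2 fold change was 0.04 and that of all genes -0.01.

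NFKBIZ, which encodes the nuclear protein IkB zeta, had 120 and 81 normalized counts in control and 239 and 247 in KO with EtOH. With DHT it had 87.8 and 66.6 in control and 185 and 176 in KO, and in FM 78.4 and 81.7 in control and 91.4 and 69.0 in KO. As with RELB, the lines were apart in both starved conditions and overlapped in FM. KO against control was 1.27 in EtOH (SE 0.24, adjusted p = 7.05e-06, DESeq2), 1.23 in DHT (SE 0.25, adjusted p = 2.60e-05) and 0.01 in FM (95% interval -0.51 to 0.53). FM lowered NFKBIZ in KO by a log2 fold change of -1.59 (SE 0.25, adjusted p = 1.88e-09).

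IRF1, a transcription factor of interferon responses, had 76.1 and 71.6 normalized counts in control EtOH and 147 and 129 in KO EtOH. Its change of 0.90 (SE 0.30, adjusted p = 0.0288, DESeq2) was lost in 5 of 11 alternatives, among them each sample left out, with adjusted p up to 0.343. In KO it fell with DHT, at -1.17 on the log2 scale (SE 0.30, adjusted p = 0.00134), and in FM, at -1.65 (SE 0.31, adjusted p = 1.39e-06). The fall with DHT was lost without replicate 1 of KO DHT and without replicate 1 of KO EtOH.

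In DHT 2 of 65 listed genes were higher in KO (RELB and NFKBIZ) and 4 were lower, IL18R1, PELI1, PELI2 and NFKBIB. This is 9.23% beside 7.98% of all genes. PELI1 and PELI2 encode ubiquitin ligases that act on IRAK proteins. Under DHT, PELI2 had 268 and 274 normalized counts in control and 173 and 164 in KO, a log2 fold change of -0.68 (SE 0.17, adjusted p = 9.16e-04, DESeq2). PELI1 was at -0.67 (SE 0.18, adjusted p = 0.00272) and NFKBIB, an IkB gene, at -0.68 (SE 0.16, adjusted p = 3.67e-04). Without replicate 2 of control DHT only 2 of the listed genes passed, and the calls of RELB, PELI1 and NFKBIB were among those lost. The PELI1 call was also lost without replicate 2 of KO DHT.

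In FM 4 of 64 listed genes were higher in KO (TICAM1, SHARPIN, SIGIRR and JUNB) and 3 were lower (IL18R1, PELI1 and PELI2). This is 10.9% beside 8.01% of all genes. PELI2 had 425 and 382 normalized counts in control FM and 204 and 202 in KO FM, a log2 fold change of -0.99 (SE 0.16, adjusted p = 1.23e-07, DESeq2). PELI1 was at -0.88 (SE 0.18, adjusted p = 4.29e-05), and SHARPIN, a subunit of the linear ubiquitin ligase, was at 0.76 (SE 0.15, adjusted p = 1.04e-05). SIGIRR, a receptor that restrains Toll-like signalling, was at 0.67 (SE 0.19, adjusted p = 0.00645) and JUNB, an AP-1 subunit, at 0.68 (SE 0.26, adjusted p = 0.0482). The SIGIRR call was lost without replicate 2 of KO FM and without either control FM sample. The JUNB call was lost with edgeR, without either KO FM sample and without replicate 2 of control FM. Without replicate 2 of KO FM the count fell from 7 to 3, and without replicate 2 of control FM to 4. IL18R1 and TICAM1 fell outside the rule for named genes and were named after their values were seen.

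**Figure D4:**
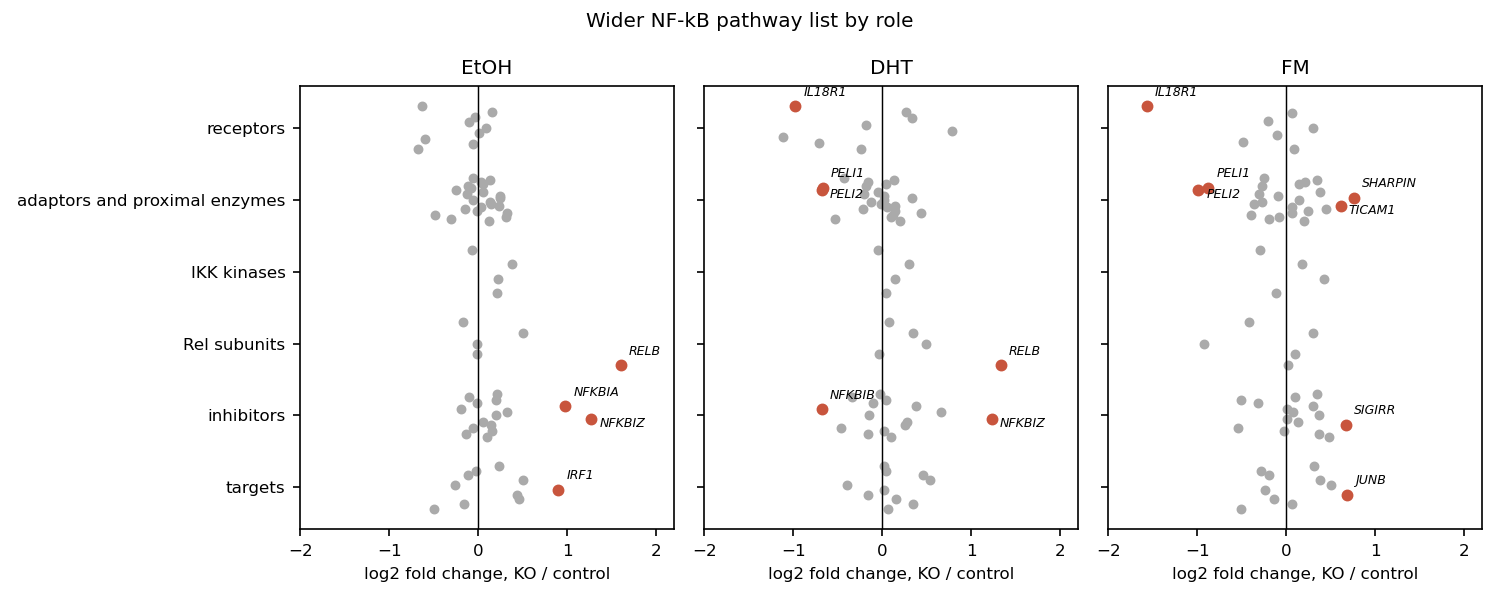
Log2 fold change of KO against control (x axis) for each tested gene of the wider list without MYD88 and TNFAIP3, in rows by role, in EtOH (left), DHT (middle) and FM (right); red points passed the threshold. RELB and NFKBIZ are red in EtOH and DHT, and PELI1 and PELI2 lie on the low side in DHT and FM.

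DHT in control raised 10 and lowered 5 of 68 listed genes, 22.1% beside 11.4% of all genes. Of 15 tested genes listed as inhibitors, 5 rose (NFKBIA, NFKBIB, NFKBIE, BCL3 and OTULIN), where 6.04% of all genes rose. The median log2 fold change of the 15 was 0.39, against -0.02 over all genes. In the other roles, 2 of 10 receptors, 0 of 23 adaptors, 0 of 4 IKK kinases and 0 of 5 Rel subunits rose. Of the targets 3 of 11 rose. A difference between the roles was not tested. NFKBIE and BCL3 fell outside the rule for named genes and were named after their values were seen. OTULIN, a deubiquitinase that cuts linear ubiquitin chains, had 938 and 766 normalized counts in control EtOH and 1676 and 1593 in control DHT, a log2 fold change of 0.94 (SE 0.12, adjusted p = 1.84e-13, DESeq2). BCL2L1, an inhibitor of cell death, rose by 0.98 (SE 0.10, adjusted p = 2.11e-20) and JUNB by 0.91 (SE 0.25, adjusted p = 0.00245). The JUNB call was lost without replicate 1 of control EtOH.

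The largest falls with DHT in control were CD83, a surface protein of activated immune cells, at -1.48 (SE 0.21, adjusted p = 1.04e-10, DESeq2), TNFAIP2 at -1.46 (SE 0.14, adjusted p = 1.12e-23) and the flagellin receptor TLR5 at -1.38 (SE 0.36, adjusted p = 0.00111). Of the 11 target genes tested, which do not include the receptor TLR5, 3 rose and 3 fell. Over all genes 6.04% rose and 5.37% fell. TNFAIP2, named for its induction by tumour necrosis factor, had 955 and 996 normalized counts in control EtOH and 365 and 344 in control DHT. The TLR5 call was lost without replicate 1 of control EtOH and without replicate 2 of control DHT.

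DHT in KO raised 5 and lowered 4 of 68 listed genes, 13.2% beside 7.68% of all genes. OTULIN rose by 1.17 (SE 0.12, adjusted p = 8.11e-21, DESeq2), BCL2L1 by 0.76 (SE 0.10, adjusted p = 2.03e-12) and the interleukin-1 receptor gene IL1R1 by 0.69 (SE 0.17, adjusted p = 9.04e-04). CD83 changed by -0.91 (SE 0.20, adjusted p = 1.59e-04) and TNFAIP2 by -0.90 (SE 0.14, adjusted p = 5.73e-09). The difference of the DHT responses passed for 0 of 63 listed genes with DESeq2 and 0 with edgeR, with 8 at an unadjusted p under 0.05.

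FM against EtOH raised 5 and lowered 8 of 70 listed genes in control, 18.6% beside 21.3% of all genes, and raised 1 and lowered 9 of 70 in KO, 14.3% beside 19.3%. OTULIN rose in both lines, by 1.26 in control (SE 0.12, adjusted p = 4.36e-24, DESeq2) and 1.33 in KO (SE 0.12, adjusted p = 2.60e-27). TNFAIP2 fell in both, at -1.42 (SE 0.14, adjusted p = 2.14e-22) and -1.43 (SE 0.15, adjusted p = 4.70e-21). In control the IKK-related kinase TBK1 rose by 0.73 (SE 0.14, adjusted p = 2.26e-06) and CHUK, which encodes IKK alpha, by 0.61 (SE 0.14, adjusted p = 5.38e-05). Without replicate 2 of control EtOH neither reached the fold minimum, and 7 of the listed genes passed in place of 13. The CHUK call was also lost without replicate 2 of control FM and with a minimum of 10 counts in every sample. SIGIRR fell in both lines, at -1.16 in control (SE 0.19, adjusted p = 1.94e-08) and -0.63 in KO (SE 0.19, adjusted p = 0.00374). CD83 also fell in both, at -1.05 in control (SE 0.20, adjusted p = 2.70e-06) and -1.14 in KO (SE 0.21, adjusted p = 5.97e-07).

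The FM response differed between the lines for 3 of 62 listed genes, NFKBIA, NFKBIZ and CYLD, each with the lower response in KO, which is 4.84% beside 1.39% of all genes. NFKBIZ was at -1.26 (SE 0.36, adjusted p = 0.0341, DESeq2) and the deubiquitinase gene CYLD at -0.71 (SE 0.17, adjusted p = 0.00512). With edgeR 0 of the listed genes passed, and the NFKBIZ and CYLD calls were lost in 9 and 6 of 15 alternatives. When 1 sample was left out the count ranged from 0 to 12, the latter without replicate 1 of control EtOH. This comparison was added after the data had been seen.

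No tested gene around MYD88 passed in KO against control. Of the genes within 500 kb, 12 were tested in each condition, and 0 passed with DESeq2 and 0 with edgeR in EtOH, DHT or FM, with 0, 1 and 2 at an unadjusted p under 0.05. Over all genes 5.11%, 7.98% and 8.01% passed in EtOH, DHT and FM, so 0 of 12 is near the share over all genes. Their log2 fold changes of KO against control ran from -1.14 to 0.53 in EtOH, -0.37 to 0.58 in DHT and -0.29 to 0.67 in FM. The nearest gene before MYD88, ACAA1, which encodes a peroxisomal thiolase, lies 1310 bases away on the other strand and was at 0.04, 0.03 and 0.16 in EtOH, DHT and FM. The nearest after it, OXSR1, lies 22065 bases away and was at -0.03, -0.11 and -0.21. Around TNFAIP3, 3 genes were tested in EtOH and in DHT and 2 in FM. Of these, 0 passed with either tool, also near the share over all genes, with 1 at an unadjusted p under 0.05 in each condition. The overlapping WAKMAR2 was at 0.89 in EtOH (adjusted p = 0.501, DESeq2), and PERP, 205191 bases after TNFAIP3, was at -0.16, -0.39 and -0.14, of which the DHT value had an adjusted p of 0.00642 and was under the fold minimum.

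**Figure D5:**
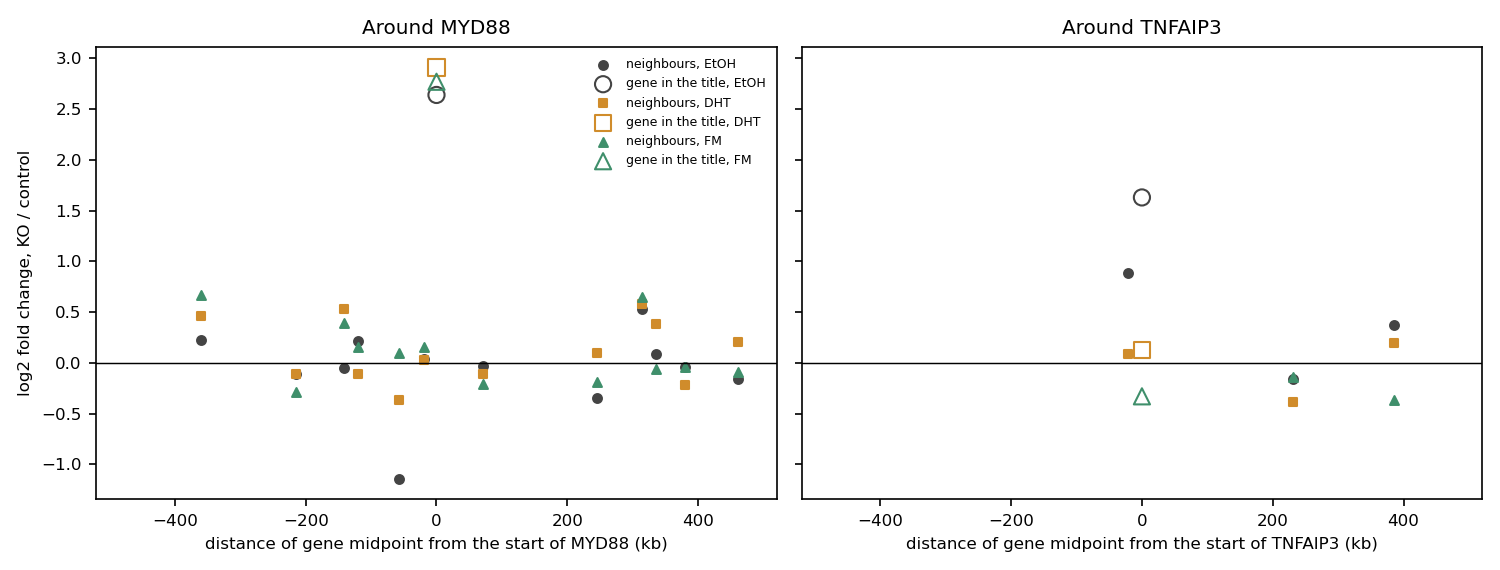
Log2 fold change of KO against control (y axis) for tested genes within 500 kb, placed by the distance of their midpoint from the start of MYD88 (left) or TNFAIP3 (right) in kb (x axis); filled symbols are neighbours, open symbols the gene itself, and shapes the 3 conditions. MYD88, chosen by its values in KO, lies at 2.64 to 2.91, and its neighbours lie at or under 0.67.

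Across the 12 samples, which are 6 pairs of replicates and not independent conditions, the genes with the pattern most like MYD88 among 11374 whose mean reached 100 normalized counts were EPHA3 (Pearson r 0.975 on log2 of the count plus 1), MPHOSPH8 (0.971), PRKAR2A-AS1 (0.967), INSIG1-DT (0.966) and SLC6A6 (0.965). Of these, EPHA3, PRKAR2A-AS1 and SLC6A6 are on chromosome 3 like MYD88, where 5.65% of the genes compared lie. The genes were picked by their values in these same samples, and a link between likeness and position was not tested. KO minus control in EtOH, DHT and FM was 3.33, 3.35 and 2.50 for EPHA3, an ephrin receptor gene, on the log2 scale. The most opposite genes were CLIC4 (-0.981), PFKP (-0.974) and SERPINB6 (-0.974).

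For TNFAIP3 the most alike were ZC3H12A (0.923), CHD3 (0.920), JAK2 (0.909), PWWP3B (0.905) and TP53INP2 (0.899), and the most opposite TMEM106C (-0.922), SMPDL3A (-0.905) and CABLES1 (-0.900). ZC3H12A encodes an RNase that degrades inflammatory mRNAs. It was at 0.81 in EtOH, 0.42 in DHT and 0.10 in FM for KO minus control on the log2 scale. Of the 8 members with such a mean, which leaves out RELB and BIRC3, NFKBIA was most like TNFAIP3 (0.897) and NFKB2 most like MYD88 (0.825), and the r between MYD88 and TNFAIP3 was 0.271.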

How the data were processed

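Poly(A) RNA was sequenced with a stranded TruSeq kit in 12 samples (2 lines, 3 conditions, 2 replicates). Per the labels and the study's methods, the authors mapped reads to GRCh37 with TopHat2 (2.0.11) and deposited raw read counts per Ensembl gene from HTSeq (0.5.3p3), with 5 tallies of reads given to no gene. These tallies held 26.86% to 31.49% of a sample's reads and were left out. HTSeq drops reads that fit several genes. Its strand setting and the Ensembl release are not given in the sources used here. Reads in the exon bases that TNFAIP3 shares with its antisense partner may thus have been dropped.

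A minimum of 10 counts summed over the 12 samples kept 26156 genes. Positions and symbols came from GENCODE on GRCh37, promoter windows from RefSeq on GRCh38.p14. All 12 samples were fitted once in DESeq2 (1.42.0, R 4.3.3), the tool the study used, with a coefficient per group, Wald tests, unshrunken log2 fold changes and Benjamini-Hochberg adjustment over all genes. DESeq2 gives no adjusted p to genes of very low mean count, and these were not counted as tested. Intervals are 95% and come from the SE. The fit was run on simulated counts with known changes, as a check of the code. Their spread between replicates was set and not taken from these data, so the calls here were not checked by it.

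The members and lists were chosen with earlier results of these data known, and no p is given for MYD88 or TNFAIP3, whose values were part of the choice. The genes named were the 10 members, the 3 largest changes in each direction per comparison among listed genes past the threshold with a mean of at least 50, the nearest neighbours of MYD88 and TNFAIP3, and the 5 most alike and 3 most opposite genes. IL18R1, TICAM1, NFKBIE, BCL3, IKBKG and IKBKE are named outside this rule. SOD2 had no match to an identifier by symbol. Alternatives were edgeR (4.0.16) with TMM, TMM size factors, other filters, only the samples compared, a replicate block, no fold minimum and each replicate left out. The difference between lines in the FM response was added after the data had been seen.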

Additional observations from a re-analysis of the deposited data

Results flagged for a closer look

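The response of TNFAIP3 differed between the lines, by -1.50 for DHT and by -1.96 for FM on the log2 scale (KO minus control). The gene was selected on its values in the knockout line, so neither carries a test. Both control FM samples lay above both control EtOH samples, and both KO FM samples lay below both KO EtOH samples.

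The FM response of NFKBIA differed between the lines by -0.68 on the log2 scale (KO minus control), past the threshold in the DESeq2 fit with 12 samples. The adjusted p ran from 3.57e-04 to 0.320 over 15 alternatives, of which 7 lost the call. In this comparison 1.39% of all genes passed.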

How the results depend on the processing

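Of 1356 fold changes of single genes recomputed under an alternative, 1264 kept their direction and side of the threshold, 52 lost the call, 20 gained it and 20 changed sign. At this depth BIRC3 had at most 6 reads in a sample and could not be tested. Where leaving out a sample left 1 in a group, it was assumed to vary like the others. The cause of these changes was not tested.

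Without the fold minimum, the listed genes that passed rose from 4 to 9 for KO against control in EtOH, from 6 to 14 in DHT and from 7 to 17 in FM, from 15 to 24 for DHT and from 13 to 20 for FM in control, and from 10 to 23 for FM in KO, since small changes then count. Of the 8 members, 3 then passed in DHT and 2 in FM for KO against control, 3 for DHT in control and 4 for FM in KO. With edgeR 2 members passed for DHT in KO, and 0 members and 0 listed genes for the difference in the FM response. With at least 10 counts in every sample, 1 member and 1 listed gene passed for the difference in the DHT response. With only the samples compared, 1 member passed for FM in control.

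When each sample was left out in turn, the listed genes that passed ranged from 3 to 4 for KO against control in EtOH, 2 to 6 in DHT and 3 to 6 in FM, 12 to 19 for DHT in control, 7 to 15 for FM in control, 8 to 9 for FM in KO, 0 to 2 for the difference in the DHT response and 0 to 12 for that in FM. Members ranged from 0 to 1 for KO against control in DHT, 1 to 2 for DHT in control, 1 to 1 for FM in control, 0 to 1 for the difference in the DHT response (1 without replicate 2 of control EtOH) and 0 to 1 for that in FM.

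The changes of sign were all of values near 0 that did not pass. Over the left-out samples KO against control ranged in DHT from -0.06 to 0.22 for NFKB1 and -0.17 to 0.08 for RELA, and in FM from -0.18 to 0.18 for RELB and -0.23 to 0.09 for TRAF6. DHT ranged from 0.00 to 0.11 for MYD88 in control and -0.11 to 0.02 for TRAF6 in KO. FM in control ranged from -0.05 to 0.03 for RELA and -0.25 to 0.11 for TRAF6. The difference in the DHT response ranged from -0.15 to 0.10 for RELA and -0.08 to 0.09 for IRAK1, and for RELA it was 0.01 with edgeR and 0.01 with TMM size factors.

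Replicate numbers are shared between groups by label only. Deviations of same-numbered samples correlated between -0.41 and 0.69 over 15 pairs of groups, 6 of them over 0.1, so the numbers were not taken to pair the samples. With the replicate block 4 listed genes passed for KO against control in EtOH, 6 in DHT and 8 in FM, each within 1.5 times the count without it.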
